A study of Homo sapiens with 39 samples.

Results

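The HSP70 and HSP110 chaperones described here are 9 human genes, HSPA1A, HSPA1B, HSPA6, HSPH1, HSPA8, HSPA9, HSPA4, HSPA1L and HSPA2. They were taken as every probe annotated to one of these symbols, which gave 13 probes of 48107 on the array. HSPA6, HSPA8, HSPA4 and HSPA2 had 2 probes each and the other 5 genes had 1 each. The 9 genes stand among 20046 gene symbols annotated to a single probe or more.

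The study exposed 2 lung cancer cell lines, NCI-H838 and NCI-H209 (called H838 and H209 below), to DKFZ-608, a compound described in the series title as inhibiting the thioredoxin reductase TRXR1 without a covalent bond. DKFZ-608 was given at 100 nM in 6.9 µM cyclodextrin for 4, 8 or 24 h, and the vehicle groups received cyclodextrin without the compound for the same times or were taken at 0 h. Both lines were grown in flasks, no gene was altered in any group, and each line stands for 1 tumour type with 1 line only. There were 39 arrays, 20 of H838 and 19 of H209, of which 16 carried DKFZ-608, 17 carried vehicle after 0 h and 6 carried vehicle at 0 h. Each group had 3 arrays except H838 DKFZ-608 at 24 h, H209 DKFZ-608 at 8 h and H209 vehicle at 8 h, which had 2 each. The labels number the replicates without saying whether each was its own culture, and p-values therefore cover only the spread between these arrays, which may be technical.

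HSP70 proteins bind exposed hydrophobic stretches of unfolded or newly made polypeptides and release them in a cycle driven by ATP. HSP110 proteins are distant relatives that act as nucleotide exchange factors for HSP70 and hold unfolded proteins in solution. Cells keep constitutive members running at all times and switch on inducible members when heat shock factor 1 is released from chaperones, trimerizes and binds heat shock elements, arrays of alternating GAA and TTC units, in promoters. HSPA1A, HSPA1B and HSPA6 are the stress-inducible HSP70 genes and HSPH1 encodes an inducible HSP110 protein. HSPA8 encodes the constitutive cytosolic HSC70, HSPA9 the mitochondrial HSP70 mortalin, and HSPA4 a constitutive HSP110 protein. HSPA1L and HSPA2 are best known from testis.

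The promoter windows below are shown because they carry the letters of the heat shock element. They belong to 3 inducible genes and to HSPA8, the constitutive gene called at 4 h with all arrays. HSPH1, inducible and also called, held no match and is not shown. Whether matches go with calls was not tested. Each window runs from 250 bases before to 50 bases after the transcription start on the gene's own strand. The windows are from RefSeq on GRCh38.p14, where all 9 members had an entry. Capitals mark matches to GAANNTTC, to TTCNNGAA, or to its 3-unit extensions GAANNTTCNNGAA and TTCNNGAANNTTC. HSPA1A lies at chr6:31815293-31815592 on the plus strand, HSPA1B at chr6:31827488-31827787 on the plus strand, HSPA6 at chr1:161524290-161524589 on the plus strand and HSPA8 at chr11:123062087-123062386 on the minus strand.
HSPA1A: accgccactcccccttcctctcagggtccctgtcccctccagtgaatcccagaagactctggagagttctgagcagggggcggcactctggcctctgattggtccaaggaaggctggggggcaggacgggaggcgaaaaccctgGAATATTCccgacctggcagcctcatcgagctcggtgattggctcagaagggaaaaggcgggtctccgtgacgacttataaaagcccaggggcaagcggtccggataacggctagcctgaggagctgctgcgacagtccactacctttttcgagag
HSPA1B: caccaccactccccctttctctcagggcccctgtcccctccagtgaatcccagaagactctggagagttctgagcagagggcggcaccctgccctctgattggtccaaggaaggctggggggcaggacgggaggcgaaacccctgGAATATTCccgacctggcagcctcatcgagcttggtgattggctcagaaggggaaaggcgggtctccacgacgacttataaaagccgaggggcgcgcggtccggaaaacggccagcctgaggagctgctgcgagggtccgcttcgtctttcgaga
HSPA6: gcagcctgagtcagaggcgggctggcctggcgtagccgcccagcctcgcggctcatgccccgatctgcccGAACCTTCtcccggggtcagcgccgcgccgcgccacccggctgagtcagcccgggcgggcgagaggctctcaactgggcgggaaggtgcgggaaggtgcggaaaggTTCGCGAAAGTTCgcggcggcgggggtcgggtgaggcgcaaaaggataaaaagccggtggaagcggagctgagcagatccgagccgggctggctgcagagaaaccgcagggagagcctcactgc
HSPA8: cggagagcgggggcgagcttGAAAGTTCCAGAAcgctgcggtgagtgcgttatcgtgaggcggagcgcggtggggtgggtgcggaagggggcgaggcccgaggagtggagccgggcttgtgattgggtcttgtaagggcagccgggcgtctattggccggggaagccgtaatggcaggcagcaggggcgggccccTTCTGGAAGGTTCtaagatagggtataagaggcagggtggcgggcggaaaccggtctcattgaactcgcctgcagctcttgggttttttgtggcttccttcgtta

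In the HSPA1A window GAATATTC began 106 bases before the start, and in the HSPA1B window the same letters began 105 bases before it. The HSPA6 window held the 3-unit match TTCGCGAAAGTTC, which began 74 bases before the start, and GAACCTTC, which began 180 bases before it. The HSPA8 window held 2 matches of 3 units, GAAAGTTCCAGAA from 230 bases and TTCTGGAAGGTTC from 55 bases before the start. A 3-unit match was in 172 of 35116 RefSeq promoter windows of the same length (0.49%), while GAANNTTC was in 6.77% of them and TTCNNGAA in 7.74%. All of these motifs read the same on both strands or were searched on both, and a 3-unit match contains the shorter ones. HSPA9 held TTCCAGAA from 4 bases before the start, and HSPA1L held GAATATTC from 161 bases before its start on the minus strand. The HSPA1L window, at chr6:31815234-31815533, shared 241 bases with that of HSPA1A, so its match is the HSPA1A match read from the opposite strand. No match to these letters was in the windows of HSPH1, HSPA4 and HSPA2. The HSPA1A and HSPA1B windows were identical at 277 of 299 aligned bases (92.6%). Probe sequences were not used here, and these neighbouring genes are near-identical in their coding sequences, so the signal of either probe may include both transcripts. The signal of the HSPA6 probes may likewise include transcript of its close pseudogene HSPA7.

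Values are probe intensity as deposited, taken to log2, so a difference of 1 is a 2-fold change in intensity. Intensity depends on the probe as well as on the transcript, so levels are compared between arrays for 1 probe and not between probes. All 13 member probes passed the filter on dim probes, which kept 42924 probes, and array medians lay between 92.6 and 94.2 in intensity. Differences were tested with limma over all kept probes with Benjamini-Hochberg adjustment, and a probe was called at an adjusted p under 0.05. The number of arrays limits the precision, and in such bulk RNA fewer cells with a transcript and less transcript per cell cannot be told apart. The 7 measured neuroendocrine markers were higher in every H209 array than in every H838 array, with CHGA between 6.42 and 6.70 in H838 and between 10.21 and 10.88 in H209 on the log2 scale. Of 8 epithelial markers, EPCAM (7.11 to 7.73 in H838, 12.44 to 12.66 in H209) and CDH1 (6.32 to 6.64 in H838, 10.22 to 10.87 in H209) were near background or low in H838, as were KRT19 (6.24 to 6.80 in H838, 10.63 to 11.45 in H209) and NKX2-1 (6.24 to 6.49 in H838, 8.32 to 9.27 in H209). KRT8 was between 9.07 and 9.83 in H838 and between 10.31 and 10.99 in H209, and in all 5 of the 8 were higher in every H209 array than in every H838 array. Fibroblast, leukocyte and endothelial markers reached at most 7.25, 6.95 and 7.09 on any array.

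Among the H209 arrays, 4 had a profile opposite to their label. The arrays labelled vehicle 8 h replicate 2 and vehicle 24 h replicate 3 resembled DKFZ-608 arrays, and those labelled DKFZ-608 8 h replicate 2 and DKFZ-608 24 h replicate 3 resembled vehicle arrays. MT1M, a metallothionein outside the chaperones, read 6.56 and 6.33 on those labelled DKFZ-608 8 h replicate 2 and 24 h replicate 3, and 12.17 and 10.65 on those labelled vehicle 8 h replicate 2 and 24 h replicate 3. HMOX1, which encodes the heme-degrading enzyme heme oxygenase 1, read 8.09 and 7.47 on the arrays labelled DKFZ-608 and 12.47 and 11.01 on those labelled vehicle, in the same order. Labels were kept as given for the main comparisons, and the comparisons of DKFZ-608 with vehicle in H209 are also given without these arrays. The 6 H209 arrays at 4 h and the 3 at 0 h are not among them.

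In H209 at 4 h the inducible members were far higher with DKFZ-608 than with vehicle, and HSPA8 was higher by less than 2-fold. Across all 39 arrays as labelled, 5 of the 13 member probes were called, all higher, against 0.315% of all kept probes called in either direction and 0.263% called higher. The called probes were HSPA1A, HSPA1B, HSPH1 and both HSPA8 probes. By class, 3 of 5 inducible probes were called with a median difference of 2.81 (1.08 to 4.45), 2 of 5 constitutive probes with a median of 0.52 (0.21 to 0.79), and 0 of 3 probes of HSPA1L and HSPA2 with a median of 0.12 (0.06 to 0.74). At an unadjusted p under 0.05, 11 of the 13 were higher, as were 1282 of the 42924 kept probes. On 11 of the 13 probes every DKFZ-608 array lay above every vehicle array, a separation in that direction that 5.93% of all kept probes showed.

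HSPA1A encodes the main stress-inducible cytosolic HSP70. It read 13.11, 13.46 and 13.46 on the H209 DKFZ-608 arrays at 4 h, against 10.17, 10.50 and 10.37 on the vehicle arrays at 4 h. The groups were far apart, with the lowest DKFZ-608 array well above the highest vehicle array. The difference was 3.00 ± 0.62 (SE, n = 3 arrays each, 7.98-fold), with a limma adjusted p of 0.0158.

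HSPA1B, which encodes a protein nearly identical to that of HSPA1A, read 13.15, 13.30 and 13.29 with DKFZ-608 and 10.27, 10.73 and 10.30 with vehicle. The groups did not overlap, and the difference was 2.81 ± 0.58 (SE, 7.03-fold, limma adjusted p = 0.0158). HSPH1 read 12.03, 12.41 and 12.28 with DKFZ-608 and 10.26, 10.40 and 10.43 with vehicle. All 3 DKFZ-608 arrays again stood above the vehicle arrays, by 1.87 ± 0.38 on average (SE, 3.66-fold, limma adjusted p = 0.0136). With all arrays except 1 of the 6 at 4 h, HSPA1A, HSPA1B and HSPH1 lost the call in 5 of 6 cases, at limma adjusted p from 0.0529 to 0.1, and kept it without DKFZ-608 replicate 1.

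HSPA6, an HSP70 gene with little expression in unstressed cells, read at background in vehicle and well above it with DKFZ-608. Its brighter probe (probe 1, ILMN_1806165) read 10.65, 11.17 and 11.03 with DKFZ-608 at 4 h, against 6.42, 6.55 and 6.52 with vehicle. Vehicle values of this probe lay around the table's median of 6.55, so the 21.9-fold difference of 4.45 is against a background reading and understates the change in transcript. With all arrays its SE was 1.24 and its limma adjusted p 0.154, so it was not called. Its dimmer probe (probe 2, ILMN_1658383) read 7.83, 7.59 and 7.03 with DKFZ-608 and 6.52, 6.30 and 6.39 with vehicle. Both probes separated the groups in the same direction but by unequal amounts, with 1.08 ± 0.40 for probe 2 (SE, limma adjusted p = 0.498).

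HSPA8 had the smallest called differences. Its probe 1 read 13.05, 12.99 and 12.91 with DKFZ-608 and 12.38, 12.34 and 12.11 with vehicle at 4 h, a difference of 0.71 ± 0.12 (SE, 1.63-fold, limma adjusted p = 0.00116). Its probe 2 read 13.02, 12.95 and 12.81 with DKFZ-608 and 12.13, 12.27 and 12.01 with vehicle, a difference of 0.79 ± 0.13 (SE, 1.73-fold, limma adjusted p = 0.000726). Both probes separated the groups in full, and with all arrays their errors were a fraction of those of the inducible members. Without the H209 arrays at 8 and 24 h the largest SE of any member at 4 h was 0.14.

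Of the other constitutive members, HSPA9 read 11.68, 11.73 and 11.75 with DKFZ-608 and 11.13, 11.17 and 11.28 with vehicle. The groups did not overlap, but with all arrays the difference of 0.52 ± 0.15 (SE) had a limma adjusted p of 0.183. HSPA4 probe 1 read 9.30, 9.43 and 9.54 with DKFZ-608 and 8.91, 9.12 and 9.06 with vehicle, a difference of 0.39 ± 0.17 (SE) that was not called. HSPA4 probe 2, a dim probe, differed by 0.21 ± 0.07 (SE) and was not called. HSPA1L, the neighbour of HSPA1A on the opposite strand, read 7.31, 7.42 and 7.41 with DKFZ-608 and 6.71, 6.64 and 6.56 with vehicle. These groups were well apart, and the difference of 0.74 ± 0.18 (SE) had a limma adjusted p of 0.0521. With the replicate number as a block it was 0.0321 (6 of 13 probes called, against 0.58% of all kept probes). The HSPA1L vehicle values lay near the table's median of 6.55, so the size of the difference is uncertain. Over all settings run it ranged from 0.71 to 2.12. HSPA2 differed by 0.06 ± 0.09 and 0.12 ± 0.12 on its 2 probes (SE), with groups that overlapped on both.

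Few markers of the lines differed with DKFZ-608 in H209. NKX2-1, a lung lineage transcription factor, fell by 0.55 at 4 h without the H209 arrays at 8 and 24 h (limma adjusted p = 0.000122). It was the 1 of 8 epithelial markers called, and 0 of 7 neuroendocrine markers were, against 0.885% of all kept probes. Without the 4 arrays, left out for their profile, 8 h rests on 1 array per group. There NKX2-1 differed by -0.76 and the neuroendocrine factor INSM1 by -0.57. At 24 h without the 4 arrays no marker was called. With all arrays none of these markers was called, and their part in the chaperone differences was not tested.

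**Figure D1:**
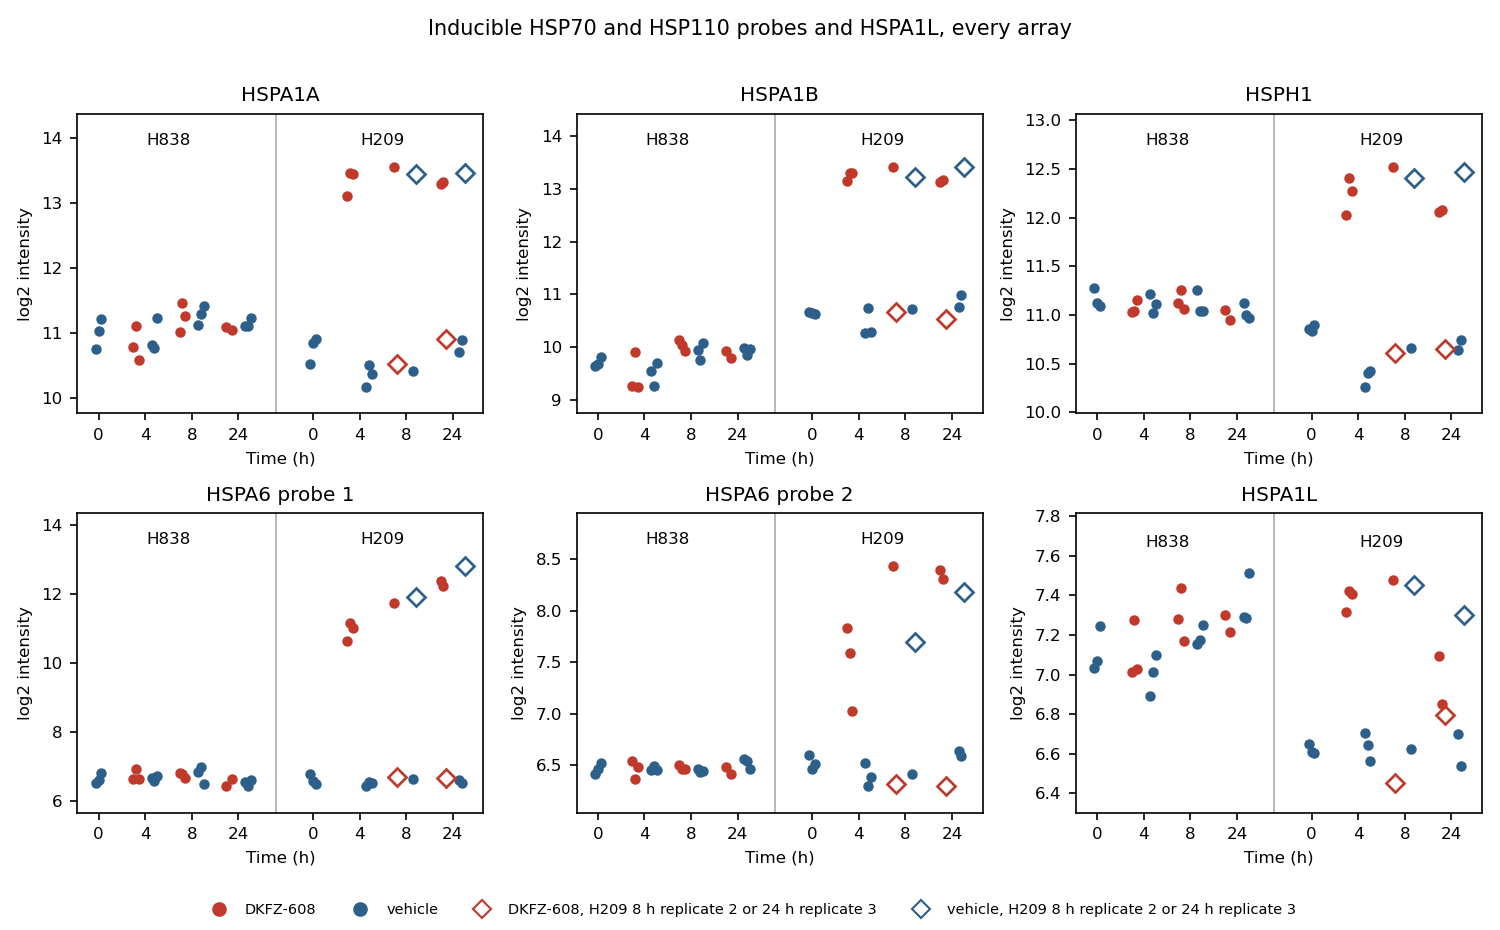
Log2 intensity of HSPA1A, HSPA1B, HSPH1, both HSPA6 probes and HSPA1L on every array (y axis) by time in h (x axis), H838 left and H209 right of the line in each panel, with DKFZ-608 left of vehicle at each time. Filled circles are arrays, and open diamonds are the H209 arrays labelled 8 h replicate 2 and 24 h replicate 3; in H209 the 3 DKFZ-608 arrays at 4 h sit above all vehicle arrays at 4 h in each panel, and in the panels other than HSPA1L the diamonds sit at the level of the opposite label.

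Each SE above rests on a spread estimate that all 14 groups share, including the H209 groups at 8 and 24 h. Without any H209 array at 8 and 24 h (29 arrays), the 4 h differences were the same by construction, and their SE fell to 0.14 for HSPA1A, 0.13 for HSPA1B, 0.12 for HSPA6 probe 1, 0.11 for HSPA6 probe 2 and 0.08 for HSPH1. In that fit 10 of the 13 probes were called, all higher, against 0.885% of all kept probes called. All 5 inducible probes were called, with limma adjusted p-values of 2.46e-15 for HSPA1A, 1.85e-15 for HSPA1B, 2.2e-21 and 7.96e-08 for the HSPA6 probes and 7.28e-16 for HSPH1. Both HSPA8 probes, HSPA9 (limma adjusted p = 0.00193), HSPA4 probe 1 (limma adjusted p = 0.0136) and HSPA1L (limma adjusted p = 4.56e-07) were called too. HSPA4 probe 2 and both HSPA2 probes were not. With the 6 H209 arrays at 4 h alone, 9 of 13 were called against 0.452% of all kept probes, and HSPA4 probe 1 was the one lost (limma adjusted p = 0.128).

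The size of the HSPA8 and HSPH1 differences at 4 h depended partly on which vehicle arrays they were set against. HSPH1 read 10.26, 10.40 and 10.43 in H209 vehicle at 4 h and 10.85, 10.84 and 10.90 in vehicle at 0 h, a difference of -0.50 with all vehicle arrays at 4 h below those at 0 h. HSPA1A at 4 h minus 0 h in vehicle was -0.41 and the HSPA8 probes were at -0.37 and -0.32. None was called across all arrays or without the H209 arrays at 8 and 24 h, where HSPH1 had a limma adjusted p of 0.0909 (0% of all kept probes called in both). Without the 4 arrays HSPH1 was called lower in vehicle at 4 h than at 0 h (limma adjusted p = 0.0411), the 1 probe called of all kept probes (0.00233%). Against vehicle at 0 h, which was not matched in time, DKFZ-608 at 4 h was higher by 2.59 for HSPA1A, 2.60 for HSPA1B, 4.33 for HSPA6 probe 1 and 1.37 for HSPH1. HSPA8 was then higher by 0.34 and 0.47 on its 2 probes. With all arrays 2 of 13 probes, HSPA1B and HSPA1L, were called against vehicle at 0 h (0.342% of all kept probes), and HSPA1A (limma adjusted p = 0.0548), HSPH1 (0.162) and the HSPA8 probes (0.443 and 0.136) were not. Without the H209 arrays at 8 and 24 h, 9 of 13 probes were called against vehicle at 0 h (0.925% of all kept probes), with HSPA8 probe 1 not called (limma adjusted p = 0.144).

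In H209 at 8 h and at 24 h with arrays as labelled, no member probe was called at either time (limma), as was no probe of the whole array (0% called at both times). At an unadjusted p under 0.05 the counts over all kept probes were 1246 at 8 h and 1278 at 24 h, with 0 of the 13 members among them at either time. HSPA1A read 13.56 and 10.52 on the arrays labelled DKFZ-608 8 h and 10.41 and 13.44 on those labelled vehicle 8 h. At 24 h it read 13.30, 13.33 and 10.90 on the arrays labelled DKFZ-608 and 10.71, 10.89 and 13.47 on those labelled vehicle. In each of these groups 1 array sat at the level of the other group, so the mean differences were 0.12 ± 0.76 at 8 h and 0.82 ± 0.62 at 24 h (SE).

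HSPA6 probe 1 showed the same crossing more steeply. It read 11.75 and 6.68 on the arrays labelled DKFZ-608 8 h and 6.63 and 11.93 on those labelled vehicle 8 h. At 24 h it read 12.40, 12.25 and 6.67 on the arrays labelled DKFZ-608 and 6.61, 6.52 and 12.82 on those labelled vehicle. Intermediate values were absent, and the differences as labelled were -0.07 ± 1.51 at 8 h and 1.79 ± 1.24 at 24 h (SE).

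Leaving out the 4 arrays gives the later H209 times from 1 array per group at 8 h and 2 per group at 24 h. These arrays were left out for a profile that includes the chaperones, so the values that follow describe the remaining arrays and are not independent evidence of direction. The fit takes the lone arrays at 8 h to have the same spread as the remaining groups. At 8 h 7 of the 13 probes then passed the threshold, all higher, against 0.722% of all kept probes, and at 24 h 7 did, all higher, against 0.843%. HSPA1A was higher by 3.16 ± 0.24 at 8 h and 2.52 ± 0.17 at 24 h (SE), and HSPA1B by 2.69 ± 0.22 and 2.28 ± 0.16. HSPH1 was higher by 1.87 ± 0.14 at 8 h and 1.38 ± 0.10 at 24 h (SE).

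HSPA6 alone among the inducible members had larger differences at both later times on both probes than at 4 h in the remaining arrays. Its probe 1 was higher by 5.12 ± 0.20 at 8 h (34.7-fold) and 5.76 ± 0.14 at 24 h (54.1-fold), and its probe 2 by 2.02 ± 0.18 and 1.74 ± 0.13 (SE). The effect of DKFZ-608 at 24 h minus that at 4 h was 1.31 ± 0.18 for probe 1 (SE, limma adjusted p = 8.02e-05) and 0.66 ± 0.17 for probe 2 (limma adjusted p = 0.14). With all arrays as labelled, no member passed this test of the change over time (limma, 0.021% of all kept probes), and 6 were lower at an unadjusted p under 0.05, as were 920 of the 42924 kept probes.

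The constitutive members followed different courses in the remaining arrays. HSPA8 probe 1 read 12.62 and 12.58 with DKFZ-608 and 12.46 and 12.69 with vehicle at 24 h, so the groups overlapped and the difference was 0.02 ± 0.12 (SE). The HSPA8 probes differed by 0.47 at 8 h and neither was called. The effect at 24 h minus that at 4 h was -0.76 ± 0.16 for HSPA8 probe 2 (SE, limma adjusted p = 0.0321) and -0.68 ± 0.16 for probe 1 (limma adjusted p = 0.0602), which is 2 of 13 member probes past the threshold with HSPA6 probe 1, against 0.196% of all kept probes.

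HSPA9 differed by 0.55 ± 0.16 at 8 h in these arrays (SE, limma adjusted p = 0.138), which was not called. It read 11.81 and 11.78 with DKFZ-608 and 11.13 and 11.21 with vehicle at 24 h, and was higher by 0.63 ± 0.11 (SE, limma adjusted p = 0.00153). HSPA4 probe 1 was higher by 0.97 ± 0.14 at 8 h and 0.45 ± 0.10 at 24 h (SE, limma adjusted p = 0.0139 at 24 h), whereas HSPA4 probe 2 differed by 0.14 and -0.04 and was not called. HSPA1L was higher by 0.85 ± 0.15 at 8 h (SE), and at 24 h its difference of 0.35 ± 0.10 was not called. Neither HSPA2 probe was called at either time.

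**Figure D2:**
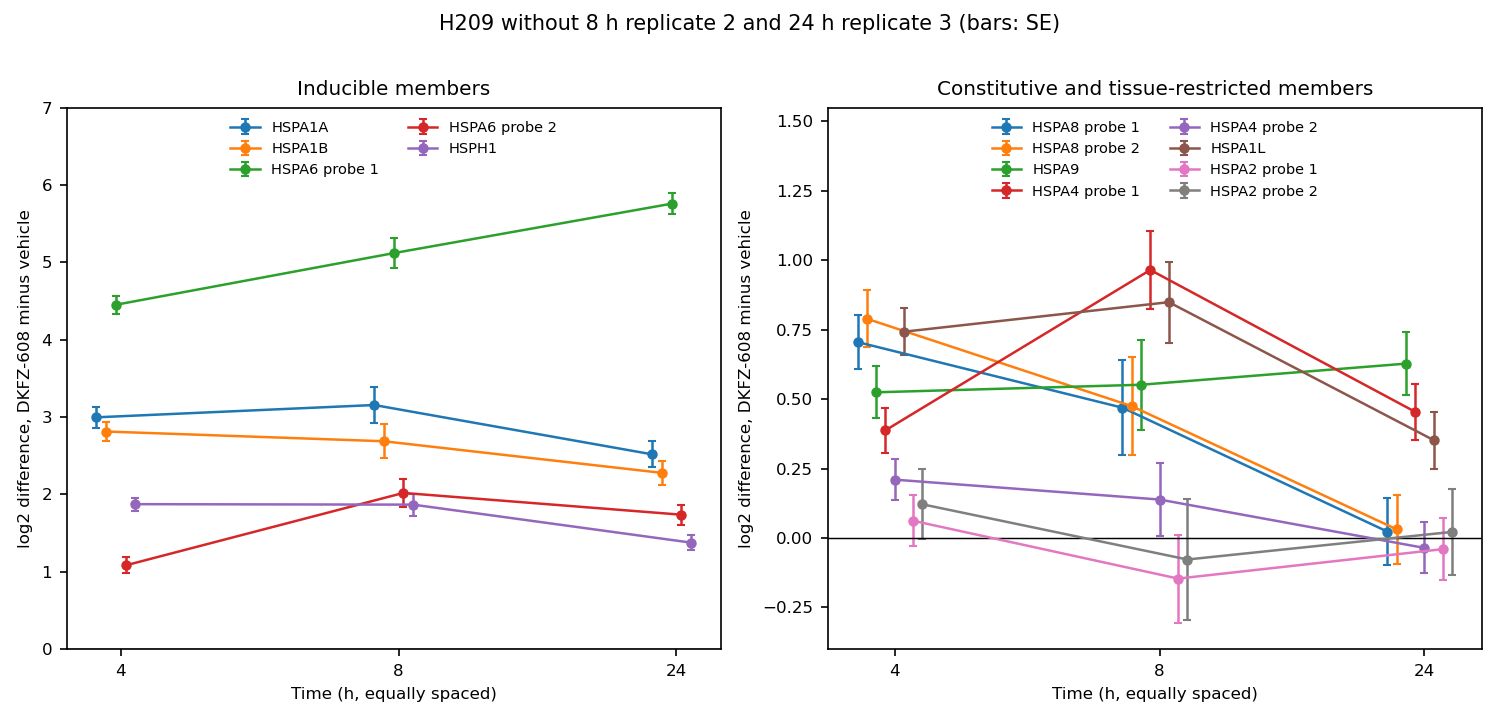
Log2 difference, DKFZ-608 minus vehicle, in H209 at 4, 8 and 24 h (x axis, equally spaced) for the inducible probes (left) and the other probes (right), without the 4 arrays labelled 8 h replicate 2 and 24 h replicate 3. Points are limma estimates, bars are SE, and the y scales differ; HSPA6 probe 1 is at 4.45 at 4 h and 5.76 at 24 h, while the HSPA8 probes are at 0.02 and 0.03 at 24 h.

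In H838 none of the 13 probes was called at 4, 8 or 24 h (limma, all arrays), as was no probe of the whole array (0% called at each time). At an unadjusted p under 0.05 the counts over all kept probes were 1512, 1820 and 1626 at 4, 8 and 24 h, with 0 members at each time. HSPA1A read 10.79, 11.11 and 10.59 with DKFZ-608 at 4 h and 10.82, 10.77 and 11.23 with vehicle. HSPA6 probe 1 read 6.63, 6.92 and 6.62 with DKFZ-608 at 4 h and 6.67, 6.57 and 6.72 with vehicle. HSPH1 read 11.03, 11.04 and 11.16 with DKFZ-608 and 11.21, 11.02 and 11.11 with vehicle at 4 h. The groups overlapped for all 3 genes, and HSPA6 stayed at background.

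Over all 13 probes the H838 differences ran from -0.11 to 0.11 at 4 h, from -0.02 to 0.21 at 8 h and from -0.11 to 0.00 at 24 h. With the H838 arrays fitted alone, the 95% intervals of single probes stayed within -0.39 and 0.29 at 4 h, -0.30 and 0.44 at 8 h, and -0.40 and 0.25 at 24 h. These bounds are the outermost over the 13 probes, and probes with a smaller SE had narrower intervals. In that fit 0 of 13 members were called at each time, against 2, 5 and 2 of all kept probes at 4, 8 and 24 h (0.00466%, 0.0116% and 0.00466%). MT1M read 8.42, 8.89 and 8.22 on the H838 DKFZ-608 arrays at 4 h and 7.50, 7.20 and 7.40 on the vehicle arrays at 4 h. These groups did not overlap (no test is given for it), a separation in that direction that 4.19% of all kept probes showed. HMOX1 read 8.52, 8.58 and 8.23 with DKFZ-608 and 8.30, 8.02 and 8.43 with vehicle at 4 h, and its groups overlapped.

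The effect of DKFZ-608 at 4 h was compared between the lines directly. With all arrays none of the 13 probes was called for H838 effect minus H209 effect (limma, against 0.0326% of all kept probes), 9 were lower at an unadjusted p under 0.05, as were 1091 of the 42924 kept probes, and the smallest limma adjusted p was 0.0778. With the replicate number as a block both HSPA8 probes were called, with limma adjusted p-values of 0.0223 and 0.0375, against 0.0722% of all kept probes. Without the H209 arrays at 8 and 24 h 8 were called, all lower in H838, against 0.359% of all kept probes. The difference of effects was -3.11 ± 0.20 for HSPA1A, -2.84 ± 0.19 for HSPA1B, -1.91 ± 0.12 for HSPH1 and -4.38 ± 0.17 for HSPA6 probe 1 (SE). It was -1.08 ± 0.15 for HSPA6 probe 2, -0.78 ± 0.14 and -0.79 ± 0.15 for HSPA8, and -0.64 ± 0.12 for HSPA1L. For HSPA9 it was -0.54 ± 0.14 (limma adjusted p = 0.105) and for HSPA4 probe 1 -0.37 ± 0.12 (limma adjusted p = 0.413), so the lines were not shown to differ in these.

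**Figure D3:**
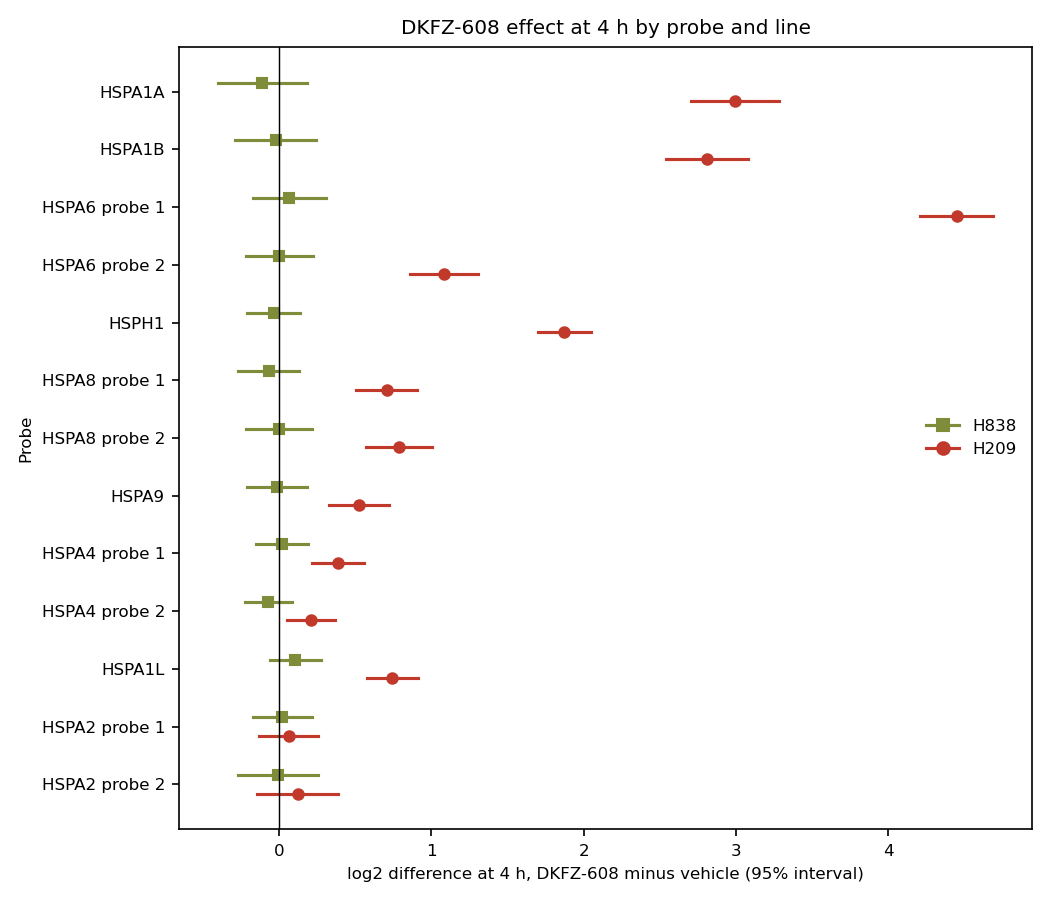
Log2 difference at 4 h, DKFZ-608 minus vehicle (x axis), for each probe (y axis), with H838 (squares) above H209 (circles). Points are limma estimates and lines 95% intervals from the fit without the H209 arrays at 8 and 24 h; H838 points lie between -0.11 and 0.11, and the 5 inducible H209 points lie between 1.08 and 4.45.

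Before treatment, at 0 h, the lines differed in several chaperones, in H838 against H209. With all arrays 6 of 13 probes were called, all higher in H838, but 29.9% of all kept probes were called in this comparison. HSPA2 probe 1 read 8.61, 9.07 and 9.02 in H838 and 8.08, 7.82 and 8.03 in H209, a difference of 0.92 ± 0.09 (SE, limma adjusted p = 4.26e-10). HSPA4 probe 1 read 9.88, 9.90 and 10.13 in H838 and 8.94, 9.04 and 9.20 in H209, a difference of 0.91 ± 0.17 (SE, limma adjusted p = 3.68e-05). On both of these probes all H838 arrays lay above all H209 arrays, as on 7 of the 13 in all, and on 1 all lay below. The share of all kept probes separated in this way was not computed for this comparison. HSPA4 probe 2 overlapped between the lines, at 7.27 to 7.46 in H838 and 7.06 to 7.32 in H209, and was not called.

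Both HSPA8 probes (0.43 ± 0.12 and 0.45 ± 0.13), HSPA1L (0.50 ± 0.18) and HSPA2 probe 2 (0.51 ± 0.12) were also higher in H838 (SE). HSPA1L lost the call without any 1 of the H209 arrays at 0 h or without H838 vehicle 0 h replicate 3, at limma adjusted p from 0.0543 to 0.114. With the replicate block it lost the call as well (limma adjusted p = 0.112), leaving 5 of 13 called against 30.2% of all kept probes. HSPA1B went the other way, at 9.64, 9.68 and 9.81 in H838 and 10.66, 10.65 and 10.64 in H209. Its difference of -0.94 ± 0.58 (SE) had a limma adjusted p of 0.271 with all arrays and of 6.7e-07 without the H209 arrays at 8 and 24 h. HSPA1A, at 10.76, 11.03 and 11.22 in H838 and 10.52, 10.84 and 10.91 in H209, overlapped between the lines. Without the H209 arrays at 8 and 24 h HSPH1 was higher in H838 too, by 0.30 (limma adjusted p = 0.00519), which made 8 of 13 called (7 higher and 1 lower) against 30.4% of all kept probes. Without the 4 arrays 8 were called too (7 higher and 1 lower, against 30.7%). HSPA6 read at background in both lines on both probes, and HSPA1L read near background in H209.

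HSPA2 was higher in H838 vehicle at 24 h than at 0 h. Its probe 1 read 9.63, 9.49 and 9.48 in vehicle at 24 h and 8.61, 9.07 and 9.02 at 0 h, and the arrays at 24 h all lay above those at 0 h. The difference was 0.63 ± 0.09 (SE, limma adjusted p = 0.00032) on probe 1 and 0.55 ± 0.12 (limma adjusted p = 0.0191) on probe 2, 2 of 13 member probes against 0.843% of all kept probes. Probe 2 lost the call without vehicle 0 h replicate 1 (limma adjusted p = 0.2) or without vehicle 24 h replicate 1 or 2 (0.0975 and 0.0976). With DKFZ-608 at 24 h probe 1 read 9.46 and 9.48, level with vehicle at 24 h. In H209 no member was called for vehicle at 24 h minus 0 h (limma, 0.00932% of all kept probes), nor without the 4 arrays (0.0256%), and HSPA2 probe 1 stayed between 7.69 and 8.24 on all arrays.

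**Figure D4:**
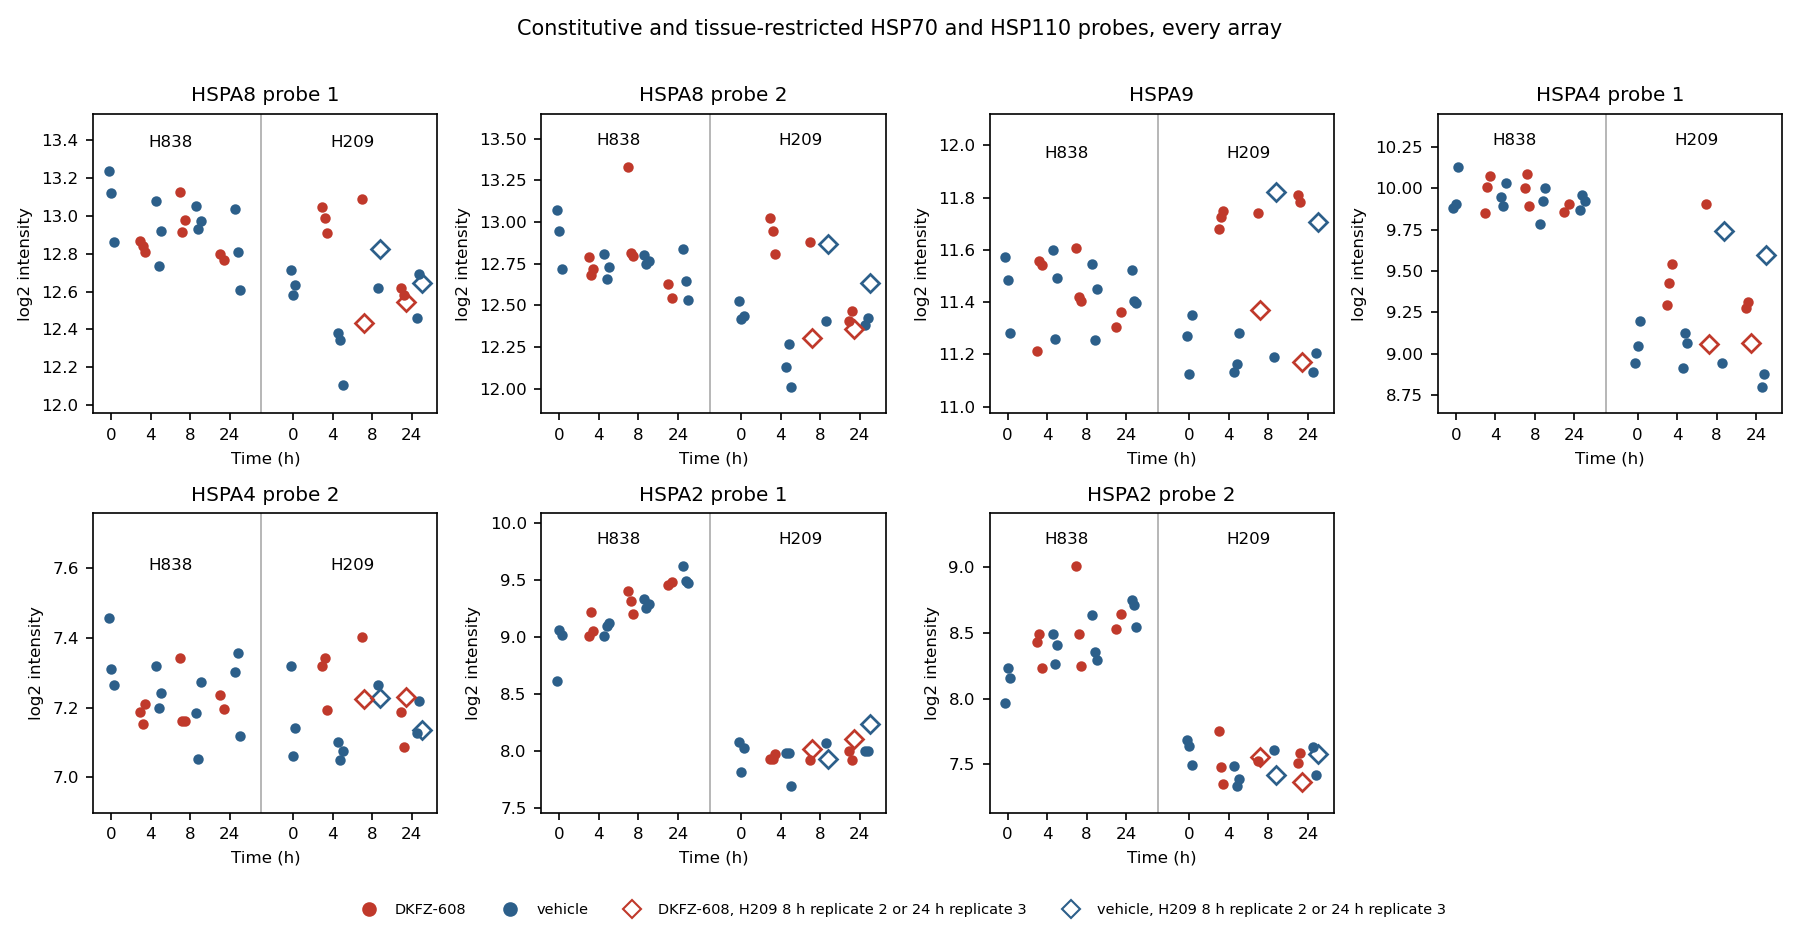
Log2 intensity of the HSPA8, HSPA9, HSPA4 and HSPA2 probes on every array (y axis, each panel with its own range) by time in h (x axis), H838 left and H209 right of the line, DKFZ-608 left of vehicle at each time. Filled circles are arrays and open diamonds are the H209 arrays labelled 8 h replicate 2 and 24 h replicate 3; HSPA2 probe 1 in H838 vehicle is between 8.61 and 9.07 at 0 h and between 9.48 and 9.63 at 24 h.

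Genes of the same pathway were read from lists, with 1 probe per gene, the one with the highest mean. Among 20 measured heat shock factor targets in H209 at 4 h, 3 were called higher and 0 lower with all arrays, with a median difference of 0.66, against 84 higher and 17 lower of 18555 genes and a median of -0.01. They were DNAJB1, an HSP40 partner of HSP70 (2.54 ± 0.58, SE, limma adjusted p = 0.0433), DEDD2, a death effector domain protein (1.57 ± 0.34, limma adjusted p = 0.0261), and DNAJA1, another HSP40 partner (1.01 ± 0.20, limma adjusted p = 0.00941). Without the H209 arrays at 8 and 24 h 12 of 20 were higher and 0 lower, against 201 higher and 82 lower of 18555 genes. They then included BAG3, an HSP70 exchange factor of autophagy (2.04 ± 0.12), and CHORDC1, an HSP90 cochaperone (1.31 ± 0.14).

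Of chaperone partners outside that list, none of 15 HSP70 partners and exchange factors was called in H209 at 4 h, either with all arrays or without those at 8 and 24 h, and their median difference was 0.12. Of 6 other measured HSP70 superfamily genes none was called with all arrays, and HSPA4L, an HSP110 gene, was without those arrays (0.53 ± 0.09, limma adjusted p = 0.000929). None of 3 measured heat shock factor genes was called in either fit, with HSF1 transcript differing by 0.11 ± 0.07 (SE). In H838 none of the genes of these lists was called at any time with all arrays, or without the H209 arrays at 8 and 24 h. In the H209 arrays that remained without the 4 arrays, 13 of 20 heat shock factor targets were higher at 8 h, against 167 of 18555 genes, and 9 of 20 at 24 h, against 210 of 18555. BAG3 was at 2.88 and 2.94 and DNAJB1 at 2.36 and 2.60 at those times. In the same arrays at 8 h DNAJC7, an HSP70 partner, was higher by 0.79 (limma adjusted p = 0.0306) and HSPA4L by 0.92 (limma adjusted p = 0.000715).

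HSPA7 is annotated as a pseudogene beside HSPA6 and its probe may read HSPA6 transcript. In H209 it was higher by 3.03 at 4 h (SE 0.99 and limma adjusted p = 0.32 with all arrays, 1.79e-18 without the H209 arrays at 8 and 24 h), and in H838 its difference was -0.02. Genes outside the members, each by its brightest probe, were ranked by Pearson's r of log2 intensity over the 19 H209 arrays. Of these, the closest to HSPA6 were HSPA7 (0.995), BAG3 (0.991), DNAJB1 (0.990), OSER1 (0.984) and MT1G (0.978). For HSPA1A they were ZFP36, MT1E, MT1G, DNAJB1 and DEDD2, from 0.984 to 0.980. For HSPH1 they were ZFP36, CHORDC1, DEDD2, MT1H and HSPB1, from 0.978 to 0.971. For HSPA8 they were EIF2S2, DNAJB6, ZCCHC8, CCT5 and DNAJA1, from 0.880 to 0.833. These values use all 19 arrays, the 4 included, which fall into 2 clusters, so a high r mostly records that both probes separate the same arrays.

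By the same measure, HSPA1B (0.993), HSPH1 (0.988), HSPA6 probe 1 (0.977) and HSPA9 (0.958) followed HSPA1A closely over the H209 arrays. HSPA1L (0.915), HSPA6 probe 2 (0.911) and HSPA4 probe 1 (0.860) followed it less closely, as did the HSPA8 probes (0.714 and 0.789). HSPA4 probe 2 had an r of 0.369 and the HSPA2 probes had 0.037 and 0.033.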

How the data were processed

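Total RNA of 39 samples was amplified to biotin-labelled cRNA and read on Illumina bead arrays, per the labels' protocols. The values are probe intensity on a linear scale, as deposited by the authors; their normalization and background handling are not given in the sources used here. Of 48107 probes, 20 with empty cells were left out, values under intensity 75.8 (percentile 1) were set to it, before taking log2. A probe was kept if at least 2 arrays exceeded the median of the whole table (42924 probes). Of all probes, 30113 had 1 gene symbol, 8 had several and 17986 none. No value was near 0, so folds of dim probes are understated.

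Groups (line, treatment, time) follow the titles, except the treatment of H838 DKFZ-608 replicate 1 at 4, 8 and 24 h. The titles of those arrays name no treatment, and it was taken from the treatment field. The time field disagreed for H209 vehicle 24 h replicate 3 and was absent for replicate 2. limma 3.58.1 in R 4.3.3 fitted 14 group means over all arrays, two-sided, with Benjamini-Hochberg adjustment over all kept probes. The procedure was tested on simulated data. Alternatives left out the 4 H209 arrays, or all H209 arrays at 8 and 24 h (chosen after seeing the data). Deviations of same-numbered H209 arrays at 4 h from their group means correlated at 0.43, 0.11 and 0.46. Arrays of unlike number were not compared, and the main fit used no block. Over all 16 pairs r ran from -0.49 to 0.46, with 8 over 0.1. In H209 at 8 and 24 h each group holds 1 array of opposite profile, which shapes these deviations. At 8 h, with 2 arrays per group, both pairs give the same r. For those times r cannot decide whether the numbers pair arrays, and in the other groups pairing was not shown. All member probes are named. The members and gene lists were chosen with earlier results of these data known. Promoters were read from RefSeq with Python 3.11.15.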

Additional observations from a re-analysis of the deposited data

Results flagged for a closer look

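The effect of DKFZ-608 at 4 h differed between the lines for 8 probes by the test of the difference itself, H838 effect minus H209 effect, in the fit without the H209 arrays at 8 and 24 h. The differences were -3.11 for HSPA1A, -2.84 for HSPA1B, -4.38 and -1.08 for the HSPA6 probes, -1.91 for HSPH1, -0.78 and -0.79 for the HSPA8 probes and -0.64 for HSPA1L. With all arrays as labelled, none of them was called (limma, smallest adjusted p 0.0778, 9 of 13 probes lower at an unadjusted p under 0.05, as were 1091 of the 42924 kept probes).

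The effect in H209 differed between 24 h and 4 h for 2 probes in the fit without the 4 H209 arrays, by 1.31 for HSPA6 probe 1 and by -0.76 for HSPA8 probe 2. With all arrays as labelled, neither was called. The 4 arrays were left out for a profile that includes the chaperones, so these 2 differences describe the remaining arrays and are not independent evidence.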

How the results depend on the processing

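The count of member probes called in H209 at 4 h was 5 with all arrays. It was 10 without the 4 H209 arrays, 10 with the replicate block and without them, 10 without all H209 arrays at 8 and 24 h, 9 with the 6 arrays at 4 h alone, 8 with array weights, 2 with percentile 5 of each array subtracted, 2 with the H209 arrays alone and 2 against vehicle at 0 h. Leaving out 1 of the 6 arrays at a time gave 2 to 5; without DKFZ-608 replicate 2 or 3, or any 1 of the 3 vehicle arrays, 2 were called, and HSPA1A, HSPA1B and HSPH1 lost the call at adjusted p from 0.0529 to 0.1. The counts over all kept probes in that comparison were 135 with all arrays, 403 without the 4 arrays and 36 with the H209 arrays alone. In H209 at 8 h and 24 h the count was 0 with all arrays, 7 and 7 without the 4 arrays and 7 and 7 with the replicate block and without them; leaving out 1 array gave 0 at both times.

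For H838 effect minus H209 effect at 4 h it was 0 with all arrays, 8 without the 4 arrays, 8 without all H209 arrays at 8 and 24 h, 9 with the replicate block and without the 4 arrays, 2 with the replicate block and 2 with array weights. For the H209 effect at 24 h minus that at 4 h it was 0 with all arrays, 2 without the 4 arrays, 5 with the replicate block and without them, 1 with the replicate block and 1 with array weights. For H838 vehicle at 24 h minus 0 h it was 2, and 1 with percentile 5 subtracted or with 1 probe per gene; leaving out 1 array gave 1 to 2, with 1 without vehicle 0 h replicate 1, vehicle 24 h replicate 1 or vehicle 24 h replicate 2. H838 minus H209 at 0 h gave 5 to 6 when 1 array was left out. In H838 at 4, 8 and 24 h the count was 0 in each setting run.

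The direction turned without the 4 H209 arrays, with and without the replicate block, for HSPA6 probe 1 at 8 h (5.12) and at 24 h minus 4 h (1.31). It also turned for HSPA1L at 8 h (0.85) and for HSPA6 probe 2 at 24 h minus 4 h (0.66), which passed the threshold only with the block. Smaller differences turned without the 4 arrays as well, among them HSPA9 at 24 h minus 4 h (0.10), which was not called. The replicate block over all arrays also brought HSPA1L in H209 at 4 h under the threshold. The cause of these changes was not tested beyond the arrays left out. The number of arrays limits the 8 h and 24 h values in H209, with 1 and 2 arrays per group once the 4 arrays are left out. Signal near background limits HSPA6 in vehicle and in H838, and HSPA1L in H209 vehicle.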
